A study of Mus musculus with 6 samples.

Results

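The genes described here make, take up, move and export cholesterol. They are 32 genes chosen by symbol, with earlier results of these data known. All 32 were found once among the 27179 gene rows of each of 2 comparison tables. By role they comprise 19 genes of cholesterol synthesis, 5 genes that regulate the SREBP transcription factors, 4 genes of uptake, trafficking and storage, and 4 genes of efflux and the LXR receptors. The RNA came from C2C12, a mouse myoblast line that fuses into myotubes when serum is withdrawn, taken 48 h after the change to differentiation medium, which held 2% horse serum and 2 ug/ml insulin. The 6 libraries form 3 groups of 2 (A and B): cells stably carrying an shRNA to BAF250a, cells stably carrying an shRNA to BRD9, and cells stably carrying a scrambled shRNA with no target (shScr). BAF250a, encoded by Arid1a, is a subunit of the canonical BAF chromatin remodelling complex, and BRD9 is a subunit of the non-canonical BAF complex. The labels give 1 construct name per target, state no strain or genotype beyond the cell line, and do not say how the cultures of the duplicates were separated, so the spread behind the p-values may be technical.

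Cholesterol is built from acetyl-CoA through mevalonate, isoprenoid diphosphates, squalene and lanosterol. When sterol in the endoplasmic reticulum is low, SCAP carries SREBP proteins to the Golgi, where they are cleaved into transcription factors that switch on the synthesis genes. INSIG proteins hold SCAP back when sterol is plentiful, and the sterol-activated LXR receptors turn on the efflux transporters, so synthesis and efflux genes usually move in opposite directions when cell sterol changes. Myoblasts need sterol for growth of their membranes.

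The deposited tables hold 1 value per gene and comparison, with no value per library, so the level in each of the 6 libraries and the sequencing depth were not analysed here. A positive fold change was taken to mean higher in the knockdown, since the authors' deposited tables give Arid1a a log2 fold change of -1.95 with shBAF250a and Brd9 one of -1.60 with shBRD9. Group means were computed from the deposited mean and fold change of each gene, and are called implied levels, in normalized counts. The 2 shScr libraries are the control of both comparisons, and the 2 tables return nearly the same implied shScr levels: over 11496 genes with a mean of at least 100 in each table, the level from the shBRD9 table divided by that from the shBAF250a table was 1.04 at the median, and over the 32 cholesterol genes it ran from 0.998 to 1.09. A low level in those shScr libraries and a rise in both knockdowns can therefore not be told apart.

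In the deposited tables cholesterol genes were called only upward. With shBAF250a, 14 of the 32 genes were higher and 0 were lower than with shScr at an adjusted p below 0.05 in the Wald test of the authors' deposited table (DESeq2), against 11.2% of all 16450 genes tested called higher and 17.5% called lower. With shBRD9, 13 of the 32 were higher and 0 were lower in the authors' deposited table, against 5.11% of all 17198 genes tested called higher and 9.33% called lower. The median log2 fold change of the 32 genes was 1.02 with shBAF250a, where the median of all genes tested was -0.18, and 0.98 with shBRD9, where it was -0.15. Among genes with a mean of 100 or more, 13.5% were called higher with shBAF250a and 6.27% with shBRD9. The 32 genes were chosen with earlier results of these data known, so an excess over these shares is not independent support. All 32 genes passed the filter that gives an adjusted p, and the lowest mean among them was that of Abca1, at 52.0 and 29.0 normalized counts in the authors' deposited tables for shBAF250a and shBRD9.

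Both counts rest on the deposited standard errors. With a Bonferroni adjustment they were 6 with shBAF250a (3.36% of all genes called higher) and 2 with shBRD9 (1.56%), and with Wald scores rescaled to their own spread over well-measured genes they were 1 with shBAF250a (Fdps; 1.51%) and 2 with shBRD9 (Fdps and Insig1; 1.61%). Muscle markers moved in both comparisons. Myf5 was called lower in both of the authors' deposited tables, at -1.83 with shBAF250a and -1.78 with shBRD9. The other muscle markers called differed between the comparisons. All 5 of 5 myotube markers were lower with shBAF250a, their summed implied level being 55632 with shBAF250a and 428508 with shScr, whereas 0 of 5 were called with shBRD9, with sums of 436050 and 446423. Of 3 cycling-cell markers only Ccnb1 was called, higher with both shRNAs, and the summed level of the 3 was 28118 with shBAF250a against 15599 with shScr, and 13650 with shBRD9 against 16226 with shScr. Of 4 myoblast markers, 1 was lower with shBAF250a (summed level 110926, against 182121 with shScr), and 2 were higher and 1 lower with shBRD9 (169881, against 189412 with shScr). Those sums are mostly Des: Pax7, a marker of satellite cells and early myoblasts, stood at 1069 with shBRD9 against 55.8 with shScr, a log2 fold change of 4.26 (adjusted p = 7.05e-14) in the authors' deposited table, and with shBRD9 Myod1 was higher at 1.67 and Myf5 lower at -1.78 in the authors' deposited table. The part of these shifts in the cholesterol gene changes was not tested. Markers of liver, fat and macrophage cells, the cell types best known for these pathways, summed to at most 184 normalized counts per list in any group, and the defining Adipoq and Ttr were at 0; of the 5 macrophage markers, 1 was higher and 1 lower with shBAF250a and 1 was lower with shBRD9. In bulk RNA, fewer cells expressing a gene and less of its RNA per cell cannot be told apart.

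**Figure D1:**
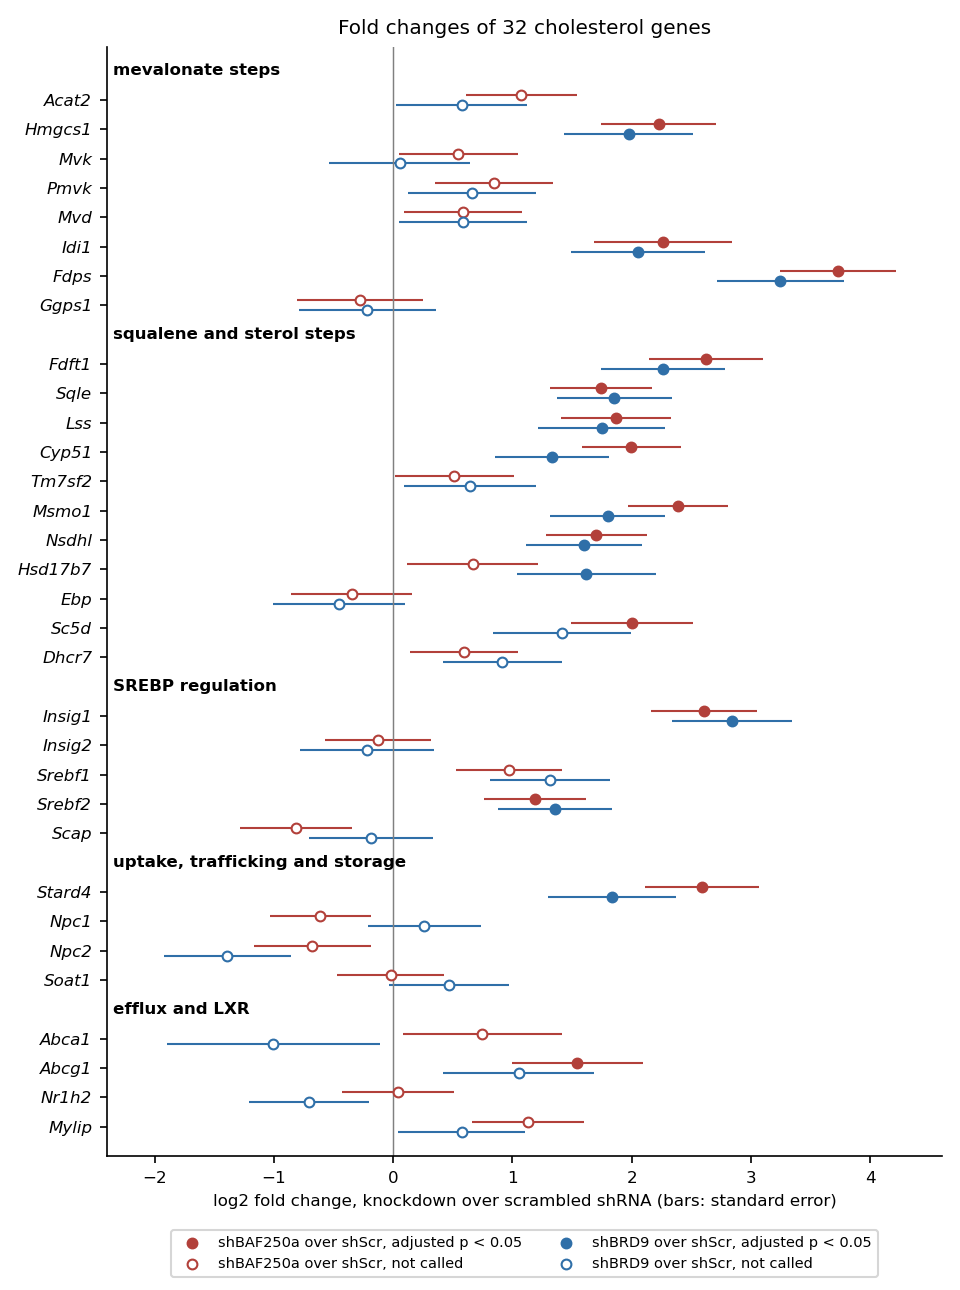
Log2 fold changes of the 32 genes, by role, for shBAF250a (red, upper point) and shBRD9 (blue, lower point), each over shScr; bars are the deposited standard errors and filled points have an adjusted p below 0.05. Filled points lie only right of 0, and 12 genes are filled in both comparisons.

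Among the 8 genes of the mevalonate steps, 3 rose in each comparison (37.5%) and 0 fell. Of all genes tested, 11.2% were called higher with shBAF250a and 5.11% with shBRD9. The median log2 fold change of the 8 genes was 0.96 with shBAF250a and 0.62 with shBRD9. The gene with the highest fold change of the 32 was Fdps (chr3:89093588-89101967, RefSeq GRCm38.p6), which encodes farnesyl diphosphate synthase, the enzyme that makes the branch-point isoprenoid for sterols and prenylation. Its implied level was 26152 normalized counts with shBAF250a against 1975 with shScr, and 19946 with shBRD9 against 2102 with shScr. The authors' deposited tables give it a log2 fold change of 3.73 (SE 0.49, adjusted p = 5.21e-13) with shBAF250a and 3.25 (SE 0.54, adjusted p = 4.17e-08) with shBRD9. By upward Wald score, the fold change over its standard error, it ranked 166th among the 16450 genes tested with shBAF250a. With shBRD9 it ranked 145th of 17198 by that score.

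Hmgcs1 (chr13:119690351-119708260), the cytosolic synthase that makes HMG-CoA at the head of the mevalonate route, stood at 9022 normalized counts with shBAF250a against 1931 with shScr, and at 8114 with shBRD9 against 2065. In the authors' deposited tables its log2 fold change was 2.22 (SE 0.48, adjusted p = 3.62e-05) with shBAF250a and 1.97 (SE 0.54, adjusted p = 0.00295) with shBRD9. Idi1 (chr13:8885606-8892396) encodes the isomerase that balances the pair of isoprenoid units joined by Fdps. Its level was 1731 with shBAF250a against 361 with shScr and 1588 with shBRD9 against 383, and in the authors' deposited tables it rose by a log2 fold change of 2.26 and 2.05 with adjusted p of 6.49e-04 and 0.00285.

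The 3 enzymes between HMG-CoA and Idi1 in the list were not called. Mvk, mevalonate kinase, had log2 fold changes of 0.55 and 0.054 with shBAF250a and shBRD9 in the authors' deposited tables, Pmvk, phosphomevalonate kinase, 0.85 and 0.66, and Mvd, mevalonate diphosphate decarboxylase, 0.59 and 0.58. Their 95% intervals all include 0 and reach up to 1.82 with shBAF250a and 1.71 with shBRD9, both for Pmvk. Ggps1 makes geranylgeranyl diphosphate for protein prenylation, off the route to sterol, and had -0.28 and -0.22 in the authors' deposited tables, with neither called.

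Acat2, the cytosolic thiolase that joins acetyl-CoA units, had log2 fold changes of 1.07 (adjusted p = 0.0647) and 0.57 (adjusted p = 0.577) with shBAF250a and shBRD9 in the authors' deposited tables. Its value is uncertain, because 43.7% of its 31-base sequence words also occur in Acat3, a near-identical gene that the authors' deposited tables give at -1.80 with shBAF250a and -2.17 with shBRD9, both called lower. Acat3 had low means there, 142 and 140, against 3960 and 3292 for Acat2. Tcp1 holds 13.2% of the Acat2 words at means of 17110 and 15391. It was not called, at 1.03 with shBAF250a and 0.71 with shBRD9 in the authors' deposited tables. Fdps, Idi1 and Fdft1 also share 27.9%, 27.1% and 31.9% of their words with other genes, and the main such partners of Fdps and Idi1 were not analysed here. No source used here states how reads matching several genes were counted. Without the 8 cholesterol genes that share more than 10% of their words, the counts were 10 of 24 higher with shBAF250a, against 10.7% of all genes kept, and 6 of 24 with shBRD9, against 3.84%. With shBRD9, 4 of the 13 called genes were removed (Hmgcs1, Idi1, Fdps and Fdft1), and 3 that were kept with the same fold changes lost their call because p was readjusted over the 12259 genes left, at adjusted p of 0.0597 for Cyp51, 0.0632 for Hsd17b7 and 0.0524 for Srebf2.

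Of the 11 genes of the squalene and sterol steps, 7 rose in each comparison (63.6%) and 0 fell. Of all genes tested, 11.2% were called higher with shBAF250a and 5.11% with shBRD9. The median log2 fold change of the 11 genes was 1.74 with shBAF250a and 1.60 with shBRD9. Fdft1 (chr14:63145150-63181687), squalene synthase, commits isoprenoids to sterols. Its implied level was 15557 with shBAF250a against 2527 with shScr, and 12761 with shBRD9 against 2656, and the log2 fold changes in the authors' deposited tables were 2.62 (SE 0.48, adjusted p = 6.47e-07) and 2.26 (SE 0.52, adjusted p = 2.12e-04). Ctsb, a cathepsin gene, holds 17.6% of the Fdft1 words and was called in neither of the authors' deposited tables, at -0.076 and 0.025.

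Sqle (chr15:59315092-59331193), the epoxidase that oxidises squalene, and Lss (chr10:76531565-76557139), the synthase that closes the rings to lanosterol, shared few words with other genes. Sqle stood at 8365 with shBAF250a against 2501 with shScr and at 9633 with shBRD9 against 2666, and Lss at 2312 against 634 and 2246 against 669. In the authors' deposited tables Sqle rose by 1.74 (adjusted p = 4.11e-04) with shBAF250a and 1.85 (adjusted p = 0.00163) with shBRD9 on the log2 scale. Lss rose in the authors' deposited tables by 1.87 (adjusted p = 4.56e-04) and 1.75 (adjusted p = 0.01002).

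Lanosterol then loses 3 methyl groups. Cyp51 (chr5:4080674-4104697), the demethylase that acts first, had a level of 13197 with shBAF250a against 3310 with shScr and 8716 with shBRD9 against 3467, and log2 fold changes of 2.00 (adjusted p = 1.84e-05) and 1.33 (adjusted p = 0.0387) in the authors' deposited tables. Msmo1, Nsdhl and Hsd17b7 form the enzyme group that removes the other two methyl groups, as oxidase, decarboxylating dehydrogenase and ketoreductase. The level of Msmo1 (chr8:64718123-64733578) was 7201 with shBAF250a against 1374 with shScr and 5034 with shBRD9 against 1447, and it rose in the authors' deposited tables by 2.39 (adjusted p = 1.77e-07) and 1.80 (adjusted p = 0.00222) with shBAF250a and shBRD9. Nsdhl (chrX:72918521-72958528) stood at 6934 with shBAF250a against 2130 with shScr and 6812 with shBRD9 against 2247, and rose by 1.70 (adjusted p = 4.61e-04) and 1.60 (adjusted p = 0.00908) in the authors' deposited tables.

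Hsd17b7 and Sc5d were each called in 1 comparison. Hsd17b7 had an implied level of 663 with shBAF250a against 417 with shScr, and 1403 with shBRD9 against 457, and was called with shBRD9 alone (log2 fold change 1.62, adjusted p = 0.0413, against 0.67 and 0.388 with shBAF250a, in the authors' deposited tables). Sc5d, the desaturase that acts late in the pathway, had 1356 with shBAF250a against 338 with shScr and 955 with shBRD9 against 358, and was called with shBAF250a alone (2.00, adjusted p = 6.75e-04, against 1.42 and 0.0830 with shBRD9, in the authors' deposited tables). For neither gene did the knockdowns differ by test: the shBAF250a value minus the shBRD9 value was -0.95 (95% interval -2.53 to 0.62) for Hsd17b7 and 0.59 (-0.92 to 2.10) for Sc5d.

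The remaining 3 sterol-step genes were not called in either comparison. Tm7sf2, a sterol reductase whose reaction another enzyme also carries out, had 0.51 and 0.64 with shBAF250a and shBRD9 in the authors' deposited tables. Dhcr7, the reductase of the last step in 1 branch, had 0.60 and 0.91 in the authors' deposited tables. Ebp, the isomerase that shifts the ring double bond, had -0.35 and -0.45 in the authors' deposited tables, and with Ggps1 it was 1 of the 2 synthesis genes below 0 in both. Of the 19 synthesis genes as a whole, 17 were positive in each comparison. Of all genes tested, 7286 of 16450 were positive with shBAF250a and 7644 of 17198 with shBRD9. Among genes with a mean of 100 or more, 6000 of 11677 and 6138 of 11698 were.

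**Figure D2:**
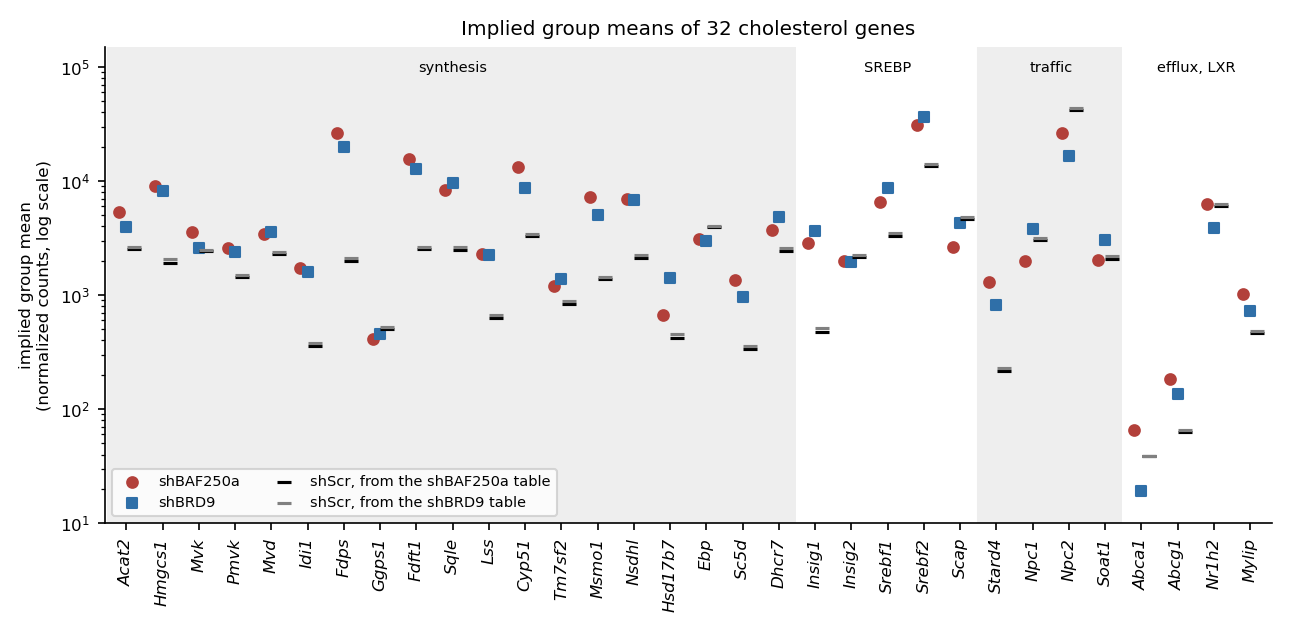
Implied group means of the 32 genes in normalized counts on a log axis, with shBAF250a (red circles) and shBRD9 (blue squares) left of shScr (bars, black from the shBAF250a table and grey from the shBRD9 table). The pair of shScr bars nearly coincide for every gene, while Fdps, Fdft1, Insig1 and Stard4 lie well above theirs with both shRNAs.

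Of the 5 SREBP regulators, Insig1 and Srebf2 rose in both comparisons (40%, against 11.2% of all genes with shBAF250a and 5.11% with shBRD9). Insig1 (chr5:28071412-28078662), the retention protein that is itself an SREBP target, had an implied level of 2888 with shBAF250a against 475 with shScr and 3681 with shBRD9 against 515. Its log2 fold changes in the authors' deposited tables were 2.60 (SE 0.44, adjusted p = 7.71e-08) and 2.84 (SE 0.50, adjusted p = 4.72e-07). Its paralog Insig2, the less sterol-responsive retention protein, had 1982 against 2165 and 1949 against 2267, with log2 fold changes of -0.13 and -0.22 in the authors' deposited tables, neither called.

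Srebf2 (chr15:82147269-82205379) encodes the SREBP form that acts mainly on sterol genes. Its implied level was 30827 with shBAF250a against 13513 with shScr and 36437 with shBRD9 against 14242, and the log2 fold changes in the authors' deposited tables were 1.19 (adjusted p = 0.0231) and 1.36 (adjusted p = 0.0337). Srebf1, which encodes the forms that act mainly on fatty acid genes, had 0.97 (adjusted p = 0.0872) and 1.31 (adjusted p = 0.0564) in the authors' deposited tables and was not called. Scap, the escort of both SREBP proteins, was not called either, at -0.81 (adjusted p = 0.190) and -0.19 (adjusted p = 0.876) in the authors' deposited tables.

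Of the 4 genes of uptake, trafficking and storage, 1 rose in each comparison. Of all genes tested, 11.2% were called higher with shBAF250a and 5.11% with shBRD9. Stard4 encodes a soluble protein that ferries cholesterol between membranes, and its implied level was 1306 with shBAF250a against 217 with shScr and 816 with shBRD9 against 229. The authors' deposited tables give it log2 fold changes of 2.59 (SE 0.48, adjusted p = 8.04e-07) and 1.84 (SE 0.53, adjusted p = 0.00622). Npc1 and Npc2, the membrane and soluble proteins that hand lipoprotein-derived cholesterol out of the lysosome, did not follow. Npc1 had -0.61 (adjusted p = 0.292) and 0.26 (adjusted p = 0.799) in the authors' deposited tables.

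The implied level of Npc2 was 26360 with shBAF250a against 42137 with shScr and 16546 with shBRD9 against 43396, below shScr with both shRNAs. Its log2 fold changes were -0.68 (adjusted p = 0.319) and -1.39 (adjusted p = 0.0591) in the authors' deposited tables, the second missing the threshold. With fold changes recentred on well-measured genes, Npc2 was called lower with shBRD9, where 9.65% of all genes were. This was the only downward call among the 32 genes under any setting run. Soat1, which esterifies cholesterol for storage, had -0.021 and 0.47 in the authors' deposited tables, neither called.

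Efflux and LXR genes were called once, upward, in 8 values, where 11.2% of all genes were called higher with shBAF250a and 5.11% with shBRD9. Abcg1 (chr17:31057694-31117984), a transporter that exports cholesterol to lipoprotein particles, had an implied level of 182 with shBAF250a against 62.5 with shScr and 136 with shBRD9 against 65.4. It rose with shBAF250a (log2 fold change 1.54, SE 0.55, adjusted p = 0.0209, in the authors' deposited table) and was not called with shBRD9 (1.05, SE 0.63, adjusted p = 0.312, in the authors' deposited table). Abca1 (chr4:53030789-53159988), the transporter that loads nascent HDL, had 65.2 with shBAF250a against 38.8 with shScr and 19.3 with shBRD9 against 38.8.

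The Abca1 fold changes pointed opposite ways, 0.75 (SE 0.67) with shBAF250a and -1.004 (SE 0.89) with shBRD9 in the authors' deposited tables, with neither called. Nr1h2, the gene of LXR beta, the widely expressed LXR receptor, had 0.041 and -0.70 in the authors' deposited tables. Mylip encodes an LXR-induced ubiquitin ligase that sends lipoprotein receptors to degradation, and had 1.13 (adjusted p = 0.0542) and 0.57 (adjusted p = 0.561) in the authors' deposited tables.

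Set side by side, the median log2 fold change of the 19 synthesis genes was 1.70 with shBAF250a and 1.42 with shBRD9, and 10 of 19 were called higher in each comparison. The 4 efflux and LXR genes had medians of 0.94 with shBAF250a and -0.065 with shBRD9, and 1 of 4 and 0 of 4 were called higher. Of all genes tested, 11.2% were called higher with shBAF250a and 5.11% with shBRD9. With 4 genes, the efflux counts cannot be told apart from these shares. No synthesis, efflux or LXR gene was called lower. The efflux median with shBRD9 has no settled sign, since it was 0.57 over the 3 genes with a mean of at least 100 and 0.025 over Abca1 and Abcg1 alone. The standard errors of Abca1 and Abcg1 ran from 0.55 to 0.89, and those of the synthesis genes from 0.42 to 0.58 with shBAF250a and from 0.48 to 0.59 with shBRD9.

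**Figure D3:**
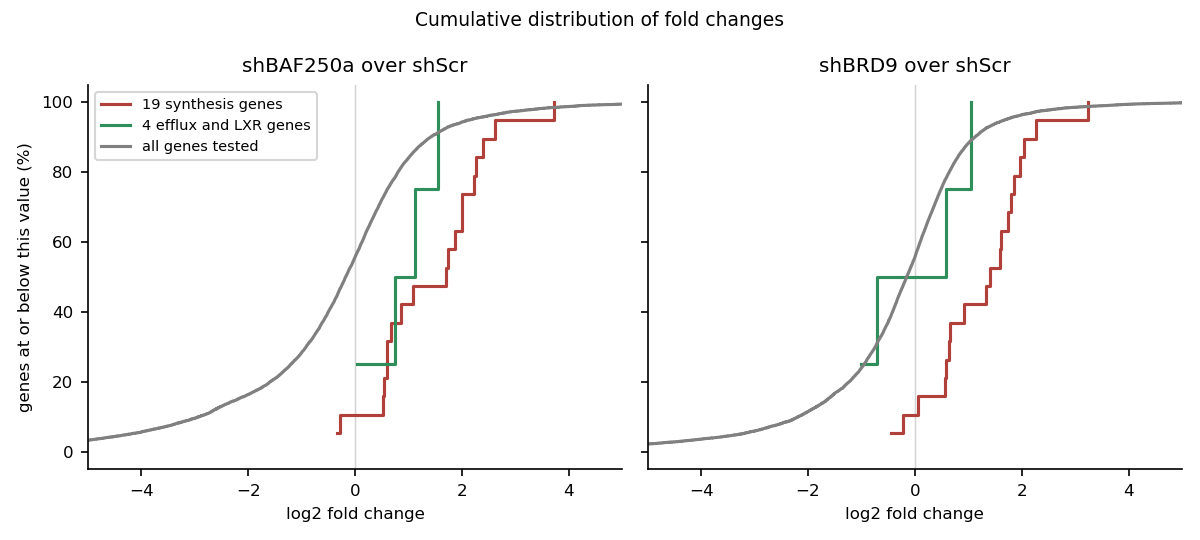
Cumulative share of genes (percent, vertical axis) at or below each log2 fold change, for shBAF250a over shScr (left) and shBRD9 over shScr (right), with the 19 synthesis genes in red, the 4 efflux and LXR genes in green and all genes tested in grey. The synthesis curve lies right of the grey curve through most of its length in both panels, and the efflux steps straddle 0 with shBRD9.

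The shBAF250a and shBRD9 responses did not differ by test for any cholesterol gene. In a z-test of the difference between the fold changes of the authors' deposited tables, Benjamini-Hochberg adjusted over 16311 genes, 0 of the 32 genes were called, against 2.54% of all genes. With 32 genes, few or no calls would be seen at that share. The smallest unadjusted p was 0.116 for Abca1, whose difference (shBAF250a minus shBRD9) was 1.75 with a 95% interval of -0.43 to 3.94. For Fdps the difference was 0.48 (-0.94 to 1.90), for Insig1 -0.23 (-1.55 to 1.08), and for Stard4 0.76 (-0.65 to 2.16). These intervals leave room for differences of more than 2-fold in either direction for Insig1, and the smallest difference called in any gene was 2.08 on the log2 scale. The test treats the shared shScr libraries as separate, which widens the intervals.

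The promoter letters of a few genes are shown because 9 of the 19 synthesis genes were called higher in both comparisons. SREBP is known to bind the sterol regulatory element, usually beside CCAAT and GC boxes that hold NF-Y and SP proteins. Sequences are from RefSeq (GRCm38.p6) and run 5′ to 3′ on the gene's strand, up to the base before the annotated start or, for Abca1, to the edge of the gene. Capitals mark the sterol regulatory element or its core (TCACNCCAC, CACNCCAC), the CCAAT box and the E box CACGTG, on either strand. The first 4 are from genes higher in both comparisons, Hmgcs1 (chr13:119690151-119690350, plus strand), Insig1 (chr5:28071292-28071411, plus), Idi1 (chr13:8885486-8885605, plus) and Nsdhl (chrX:72918401-72918520, plus), and the last is from the efflux gene Abca1 (chr4:53159989-53160095, minus).
Hmgcs1: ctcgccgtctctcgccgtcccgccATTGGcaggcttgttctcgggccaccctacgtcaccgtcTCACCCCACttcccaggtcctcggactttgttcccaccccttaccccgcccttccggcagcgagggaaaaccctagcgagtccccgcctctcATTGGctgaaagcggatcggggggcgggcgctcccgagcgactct
Insig1: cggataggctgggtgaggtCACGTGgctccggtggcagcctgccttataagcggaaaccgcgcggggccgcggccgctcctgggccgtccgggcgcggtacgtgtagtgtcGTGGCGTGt
Idi1: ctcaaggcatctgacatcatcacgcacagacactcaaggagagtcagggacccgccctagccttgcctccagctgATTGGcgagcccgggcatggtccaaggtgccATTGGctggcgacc
Nsdhl: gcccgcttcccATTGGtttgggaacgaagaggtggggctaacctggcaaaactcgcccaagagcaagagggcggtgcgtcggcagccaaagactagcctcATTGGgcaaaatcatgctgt
Abca1: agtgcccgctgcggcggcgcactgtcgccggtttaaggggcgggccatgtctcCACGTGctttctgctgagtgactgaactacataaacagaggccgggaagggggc

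The Hmgcs1 stretch holds the full element, TCACCCCAC, between a pair of inverted CCAAT boxes, whereas Idi1 and Nsdhl each show a pair of inverted CCAAT boxes with no element of these letters. The Insig1 stretch shows an E box and, just before the start, an inverted core. Of these motifs Abca1 shows the E box alone.

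Windows from 250 bases before to 50 after the start were matched for 26 of the 32 genes. Abcg1, Fdft1, Fdps, Npc1, Sqle and Stard4 are named only. CCAAT was found in 22 of the 26 genes (84.6%), against 41.1% of 27025 genes with a window, and the GC box GGGCGG in 23 (88.5%), against 38.2%. The element TCACNCCAC was in 1 (Hmgcs1, 3.85%), against 1.44%, and its core, whose letters lie within the element, in 3 (Acat2, Hmgcs1 and Insig1, 11.5%), against 7.12%. CACGTG was in 6 (23.1%), against 8.09%. The 27025 genes were not limited to those expressed here, so their shares are not matched to the cholesterol genes. One fixed spelling of the LXR response element, a direct repeat with a 4-base gap, was in 0 of the 26 genes, against 0.0148%. A looser form with a free letter in each repeat was again in 0, against 0.0999%. These spellings occur in only 4 and 27 of the 27025 genes, too few for a match among 26 genes to be likely. The LXR counts of 0 therefore do not show that any of the 26 genes, Abca1 and Mylip included, lacks an LXR element.

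CCAAT was present in nearly all synthesis genes, called or not. It was found in 8 of 8 synthesis genes with a window that were called in at least 1 comparison, and in 7 of 8 that were called in neither, among them Mvk, Mvd and Ebp. In the efflux and LXR set it was in 1 of 3, Mylip. Each match is a description of letters on both strands, not of a bound site.

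**Figure D4:**
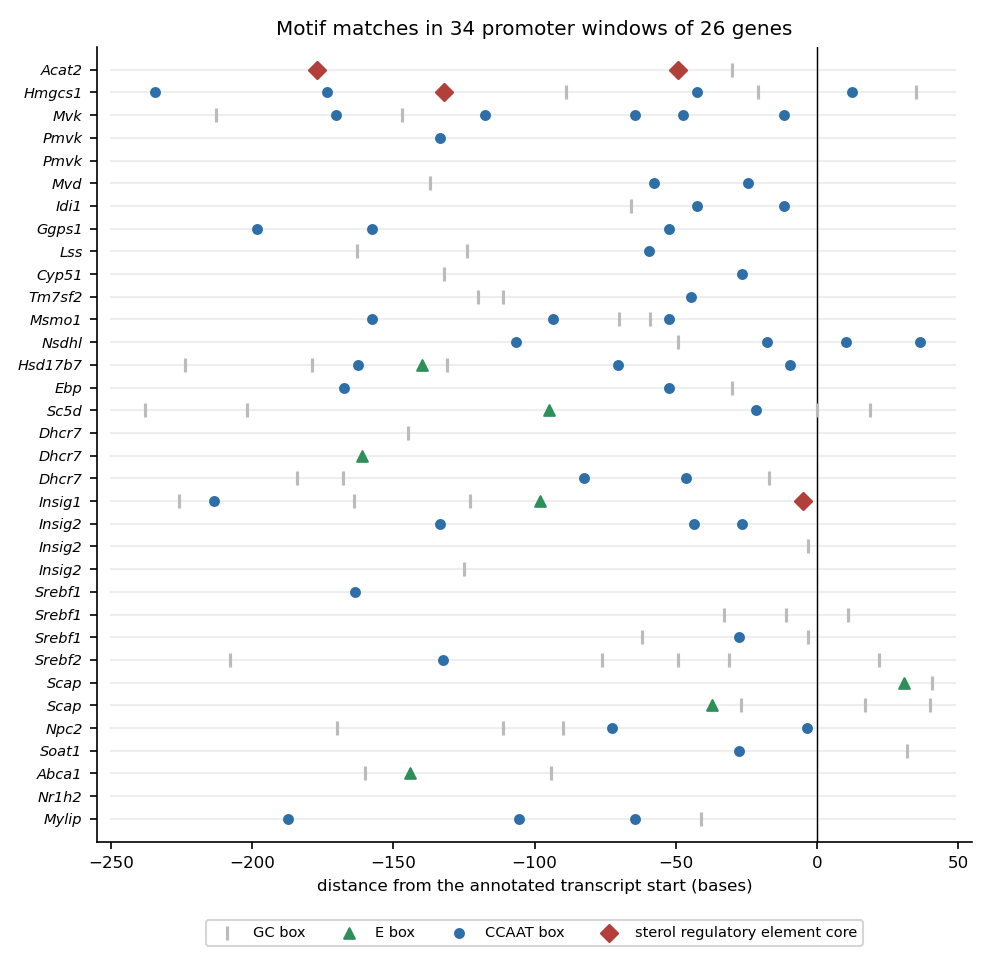
Motif matches in the 34 promoter windows of 26 cholesterol genes, by distance from the annotated start in bases (genes with several starts have a row for each); symbols mark the sterol element core, the CCAAT box, the E box and the GC box on either strand. CCAAT symbols stand in 22 genes and the core in 3.

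Neighbouring parts of the pathway moved less evenly. The 10 genes of SREBP cleavage and sterol-regulated degradation had 0 called in either comparison, with median log2 fold changes of 0.13 with shBAF250a and 0.30 with shBRD9. The 14 genes of the isoprenoid branches, which use mevalonate products for prenylation, ubiquinone and dolichol, also had 0 called, with medians of -0.020 and 0.068. Of all genes tested, 28.7% were called in either direction with shBAF250a and 14.4% with shBRD9. With lists of 10 and 14 genes, few calls would be seen at the shBRD9 share. Of 6 redox partners, Cyb5a was the only one called (1.41, adjusted p = 0.00617, with shBAF250a in the authors' deposited table). That is 16.7% called higher with shBAF250a, against 11.2% of all genes. Cyb5a encodes the cytochrome that passes electrons to sterol-step oxidases.

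Of 18 other sterol or SREBP responsive genes, 10 were higher with shBAF250a (55.6%, against 11.2% of all genes) and 1 with shBRD9 (5.56%, close to the 5.11% of all genes), and 0 were lower in either. Their median log2 fold change was 1.23 with shBAF250a and 0.69 with shBRD9, where all genes tested had -0.18 and -0.15. With shBRD9, 17 of the 18 were positive, against 6138 of 11698 genes with a mean of 100 or more. Scd2, a desaturase of fatty acids, was called in both of the authors' deposited tables, at 1.90 and 1.88. Lpin1, a phosphatidate phosphatase, was called with shBAF250a alone, at 2.51 (adjusted p = 3.48e-07) against 0.37 (adjusted p = 0.742) with shBRD9 in the authors' deposited tables, and its difference of 2.13 did not pass the test (adjusted p = 0.0774). Acly, which makes cytosolic acetyl-CoA, and Fads1, a desaturase of polyunsaturated fatty acids, were called with shBAF250a, at 1.76 and 1.62, and not with shBRD9, at 1.20 and 0.76, in the authors' deposited tables.

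Of 18 receptors and transport genes, 4 were higher and 2 lower with shBAF250a, and 2 were higher and 0 lower with shBRD9. These are 22.2% higher and 11.1% lower with shBAF250a, where all genes gave 11.2% and 17.5%, and 11.1% higher with shBRD9, where all genes gave 5.11%. Vldlr, a lipoprotein receptor, was called in both of the authors' deposited tables, at 5.83 (adjusted p = 1.50e-28) and 3.90 (adjusted p = 6.72e-10). Cav1, a cholesterol-binding protein of caveolae, was also called in both of the authors' deposited tables, at 3.56 and 1.54. Stard3, which tethers late endosomes for sterol transfer, was lower with shBAF250a at -1.56 and not called with shBRD9 at -1.33 (adjusted p = 0.0836) in the authors' deposited tables.

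Of 10 oxysterol genes and LXR partners and targets, 9 were tested, 0 were higher in either comparison, and 2 were lower with shBAF250a (22.2%, near the 17.5% of all genes called lower). Ch25h, which makes an oxysterol that holds SREBP inactive, had -1.39 (adjusted p = 0.0215) with shBAF250a and -0.87 (adjusted p = 0.306) with shBRD9 in the authors' deposited tables. Arl4c, an LXR-induced small GTPase, had -0.53 (adjusted p = 0.361) and -1.30 (adjusted p = 0.0600) in the authors' deposited tables. Cyp46a1, another sterol hydroxylase, had -1.14 (adjusted p = 0.0483) and -1.08 (adjusted p = 0.240) in the authors' deposited tables. Of the 75 genes of these neighbouring lists that were tested in both tables, 0 were called in the knockdown difference, where 2.54% of all genes were. The unadjusted 95% interval of the difference (shBAF250a minus shBRD9) lay away from 0 for 4 of them, namely Lpin1 (0.76 to 3.51), Cav1 (0.67 to 3.38), Vldlr (0.42 to 3.44) and Abca2 (-2.88 to -0.25). The share of all genes with such an interval was not computed, so the count of 4 cannot be weighed.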

How the data were processed

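The data are 2 comparison tables, one per knockdown, made by the authors from 2 libraries per group, with no values per library. Tools named by the submitters' processing notes are DESeq2, RSEM, Bowtie, StringTie and HISAT, with mm10 as genome build; their versions and roles are not stated there. Per the file headers, the authors' mean normalized count is a signal over the 4 libraries of a comparison. Per the file headers, the authors deposited a log2 fold change with its standard error. The Wald score deposited by the authors is their ratio. The deposited p-value is that of the Wald test, and the deposited adjusted p-value equalled a Benjamini-Hochberg adjustment to within a relative 0.0071. The authors' test was the planned main test, and no count model was run, since no counts are held. Deposited fold changes are pulled toward 0 at low counts: at the lowest mean, 0.159 in the shBAF250a table, they are -0.19.

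Implied levels solve the mean and fold change for equal groups. The knockdown difference was a two-sided z-test with summed variances, tested on simulated data. Shared sequence is the percent of 31-base words of a gene's GENCODE M21 transcripts found in another gene. Outside the cholesterol list, the genes named were taken from the 4 with the largest absolute Wald score per list; Abca2, Pax7 and other single markers were named after their values were seen. The members and lists were chosen with earlier results of these data known. Python 3.11.15, pandas 2.3.3 and scipy 1.17.1 were used. Alternatives were Bonferroni adjustment, an empirical null, recentring on well-measured genes, a mean of at least 100, removal of genes sharing words, and an adjusted p below 0.01.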

Additional observations from a re-analysis of the deposited data

How the results depend on the processing

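Direction held for every called gene under the alternatives run, but the number of calls did not. These alternatives leave fold changes as they are or shift them slightly, so no sign of a called gene could turn. Recentring shifted them by 0.035 with shBAF250a and 0.045 with shBRD9. From 14 genes higher with shBAF250a, a Bonferroni adjustment left 6 (Cyp51, Fdft1, Fdps, Insig1, Msmo1 and Stard4) and an empirical null 1 (Fdps). From 13 higher with shBRD9, both left 2 (Fdps and Insig1), and removing genes that share over 10% of their words left 6 of 24, 4 calls going with the genes removed and 3 (Cyp51, Hsd17b7 and Srebf2) through readjustment over fewer genes (with shBAF250a, 10 of 24). An adjusted p below 0.01 left 12 higher with shBAF250a (7.6% of all genes called higher) and 9 with shBRD9 (3.47%). Recentring gave 14 higher with shBAF250a (10.7% of all genes) and 13 with shBRD9 (4.82%). It added 1 lower call with shBRD9, Npc2, where 9.65% of all genes were called lower. A mean of at least 100 gave 14 (13.4% of the genes kept) and 13 (6.24%). The empirical null divides Wald scores by their spread over genes with a mean of 100 or more, 2.10 with shBAF250a and 1.52 with shBRD9, so it counts widespread change as spread. The efflux median with shBRD9, -0.065, was 0.57 over genes with a mean of at least 100 and 0.025 over the transporters alone, as Abca1, or Nr1h2 and Mylip, drop out. The synthesis medians stayed between 1.28 and 1.70 with shBAF250a and between 1.37 and 1.42 with shBRD9. Calls of a difference between knockdowns stayed at 0 of 32 under Bonferroni, which cannot add a call. They also stayed at 0 under the empirical null (5.29% of all genes called) and recentring (2.56%). No paired analysis was possible because the tables hold no values per library; for the same reason, leaving out a replicate, the replicate block and other normalizations were not run. Precision is limited by 2 libraries per group: the smallest log2 fold change called in any gene was 1.02 with shBAF250a and 1.29 with shBRD9.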
